A study of Mus musculus with 24 samples.

Results

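The small heat shock proteins of muscle are 7 genes, Hspb1, Hspb2, Hspb3, Hspb6, Hspb7, Hspb8 and Cryab, and they were taken by gene name from tables of 56941 genes. Each name matched 1 gene, and all 7 passed the filter on low counts that left 13318 genes for testing. RNA sequencing covered 24 tissues made with C2C12, a line of mouse myoblasts, the precursor cells that fuse and become contractile myotubes. Every tissue, controls included, carried ChR2::tdTomato, a light-gated channelrhodopsin fused to a red fluorescent protein, and was differentiated on a fibrin hydrogel in medium with inactivated horse serum and IGF-1. Tissues received light for 30 min per day at 1 Hz, 4 Hz or 10 Hz, and unstimulated tissues served as control, with 6 libraries in each of the 4 conditions. The study describes the 6 as biological replicates. Limits of the model are that all tissues come from 1 cell line with no nerve supply, and that the study describes spontaneous twitching in all conditions, so that the controls were unstimulated but not still.

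Small heat shock proteins are chaperones that share an alpha-crystallin domain, assemble into oligomers and hold unfolding proteins in a soluble state without using ATP. They pass these clients on to ATP-dependent chaperones such as Hsp70, or, with the co-chaperone Bag3, to autophagy. In striated muscle they protect desmin, filamin C, titin and actin filaments during contraction, and mutations of several of them cause muscle disease or neuropathy. Hspb1 (Hsp27) and Cryab (alpha B-crystallin) are classical stress-inducible members found in many tissues. Hspb8 is the partner of Bag3, and Hspb2 and Hspb3 form a complex with each other in muscle. Hspb6 (Hsp20) is a target of cyclic nucleotide-dependent kinases, and Hspb7 binds filamin C in heart and skeletal muscle.

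On GRCm39, all 7 were annotated as protein-coding genes. Hspb1 (ENSMUSG00000004951, 3 exons) lies at chr5:135916760-135918417 on the plus strand and Hspb7 (ENSMUSG00000006221, 3 exons) at chr4:141148090-141152625 on the plus strand. Hspb3 (ENSMUSG00000051456) is a single-exon gene at chr13:113799432-113800212 on the minus strand. Hspb6 (ENSMUSG00000036854, 3 exons) lies at chr7:30251603-30256218 on the plus strand and Hspb8 (ENSMUSG00000041548, 3 exons) at chr5:116546409-116561084 on the minus strand. Hspb2 (ENSMUSG00000038086, 2 exons) at chr9:50662378-50663858 on the minus strand and Cryab (ENSMUSG00000032060, 3 exons in its canonical transcript) at chr9:50651859-50668567 on the plus strand are neighbours transcribed away from each other. Their canonical starts are 329 bases apart, and the annotated span of Cryab reaches across Hspb2 on the opposite strand. An exon of Hspb6 likewise overlaps Lin37 on the opposite strand, and Hspb3 lies inside the long noncoding RNA Gm53818 on its own strand and Gm34586 on the other. Long noncoding RNAs on the opposite strand also overlap exons of Hspb7 (Gm70184), Hspb8 (Gm42009) and Cryab (Gm67659 and Gm67675). Whether the counting used strand is not given in the sources used here, so the levels of these 6 members may include reads of their partners.

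Upstream sequences are shown for the 3 members that passed the test against control, because 1 of them fell and the others rose. RefSeq promoter windows (GRCm38.p6) were found for 5 of the 7 members, in 6 windows since Hspb6 has 2 starts. The runs below are the 250 bases before the start, 5′ to 3′ on the gene's strand, at chr5:135887669-135887918 (plus) for Hspb1, chr13:113663677-113663926 (minus) for Hspb3 and chr4:141420529-141420778 (plus) for Hspb7. Capitals mark pairs of heat shock element units, the sequence that heat shock factors bind, searched as GAANNTTC or TTCNNGAA, each of which reads the same on both strands.
Hspb1: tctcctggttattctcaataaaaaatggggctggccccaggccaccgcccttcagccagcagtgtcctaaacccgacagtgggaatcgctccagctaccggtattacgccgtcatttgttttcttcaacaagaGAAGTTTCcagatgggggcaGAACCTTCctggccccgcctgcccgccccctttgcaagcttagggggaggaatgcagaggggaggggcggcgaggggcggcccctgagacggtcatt
Hspb3: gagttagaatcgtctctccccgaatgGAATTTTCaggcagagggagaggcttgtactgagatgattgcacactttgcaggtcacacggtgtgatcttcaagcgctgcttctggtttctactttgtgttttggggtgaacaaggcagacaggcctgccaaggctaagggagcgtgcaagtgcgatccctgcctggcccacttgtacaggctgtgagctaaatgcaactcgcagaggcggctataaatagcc
Hspb7: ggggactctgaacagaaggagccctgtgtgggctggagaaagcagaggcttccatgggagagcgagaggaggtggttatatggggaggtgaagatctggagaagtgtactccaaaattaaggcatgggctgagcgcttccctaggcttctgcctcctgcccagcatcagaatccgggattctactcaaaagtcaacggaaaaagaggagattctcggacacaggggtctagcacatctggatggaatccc
Hspb1 held 2 such pairs, beginning 117 and 97 bases before its start, Hspb3 held 1, beginning 224 bases before its start, and Hspb7 held none in its window. Of the other windows, the second of Hspb6 held 1 pair at 120 bases before the start and Hspb8 held 1 at base 3 of the transcript. Among all 32851 windows of the same 300 bases, 15.1% held a pair. A run of 3 alternating units was in 0.603% of all windows and in no member's window. The E-box CANNTG, the site of myogenic factors such as MyoD, was in the windows of Hspb1, Hspb3, Hspb7 and Hspb8 and in 72.3% of all windows. A MEF2 site was in the window of Hspb3, beginning 12 bases before the start, and in 0.557% of all windows. No member's window held a CArG box, the site of serum response factor, which 1.63% of all windows held. These matches are letters in a window and say nothing of binding in these tissues.

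Total counts per library ranged from 4.09 to 15.2 M (mega) with a median of 7.48 M, and the number of estimated counts per member and library ran from 2884 to 13442 for Cryab down to 7 to 88 for Hspb3. The counts of Hspb1 were not whole numbers in 24 of 24 libraries, as an estimate gives where reads match more than 1 place, while those of Hspb2, Hspb3, Hspb7 and Hspb8 were whole in every library. No pair of libraries of a condition was a copy, since the lowest chi-square per gene over 60 pairs was 3.16. Libraries differed in their content of 25 non-polyadenylated small RNAs. In counts per M of the library (CPM), these RNAs ranged from 98.8 to 169 in control, 15.5 to 70.8 at 1 Hz, 18.3 to 51.1 at 4 Hz and 38.4 to 274 at 10 Hz, and no library at 1 or 4 Hz reached the lowest control value of 98.8 CPM. Poly(A) selection was used except for low-input samples, which were ribodepleted and which the labels do not name, so this content and the stimulation at 1 and 4 Hz cannot be told apart. No sequencing batch is given in the labels.

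The first question was how abundant each member is in these tissues. Levels between genes are given in TPM, the length-corrected share of each transcript in its library. The order by mean TPM was Cryab, Hspb1, Hspb8, Hspb2, Hspb7, Hspb6 and Hspb3 in each of the 4 conditions. In control, no neighbours in that order overlapped over the 6 libraries. Cryab had a mean of 2006 ± 224 TPM in control, Hspb1 of 1056 ± 114 TPM, Hspb8 of 419 ± 23.3 TPM and Hspb2 of 149.7 ± 35.6 TPM (SD, n = 6 each). The remaining 3 were lower, with 68.8 ± 14.4 TPM for Hspb7, 26.4 ± 2.27 TPM for Hspb6 and 7.30 ± 2.48 TPM for Hspb3 (SD, n = 6 each). Cryab thus stood 1.90-fold above Hspb1, and Hspb1 stood 2.52-fold above Hspb8. The gap between Hspb1 and Hspb8 was smaller in stimulated tissues, at 1.50-fold at 1 Hz, 1.07-fold at 4 Hz and 1.77-fold at 10 Hz, and their ranges overlapped at all 3 frequencies. Hspb2 and Hspb7 overlapped at 1 and 4 Hz, where Hspb2 was 1.29-fold and 1.16-fold above Hspb7, but not in control or at 10 Hz, where the ratios were 2.18 and 2.02.

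**Figure D1:**
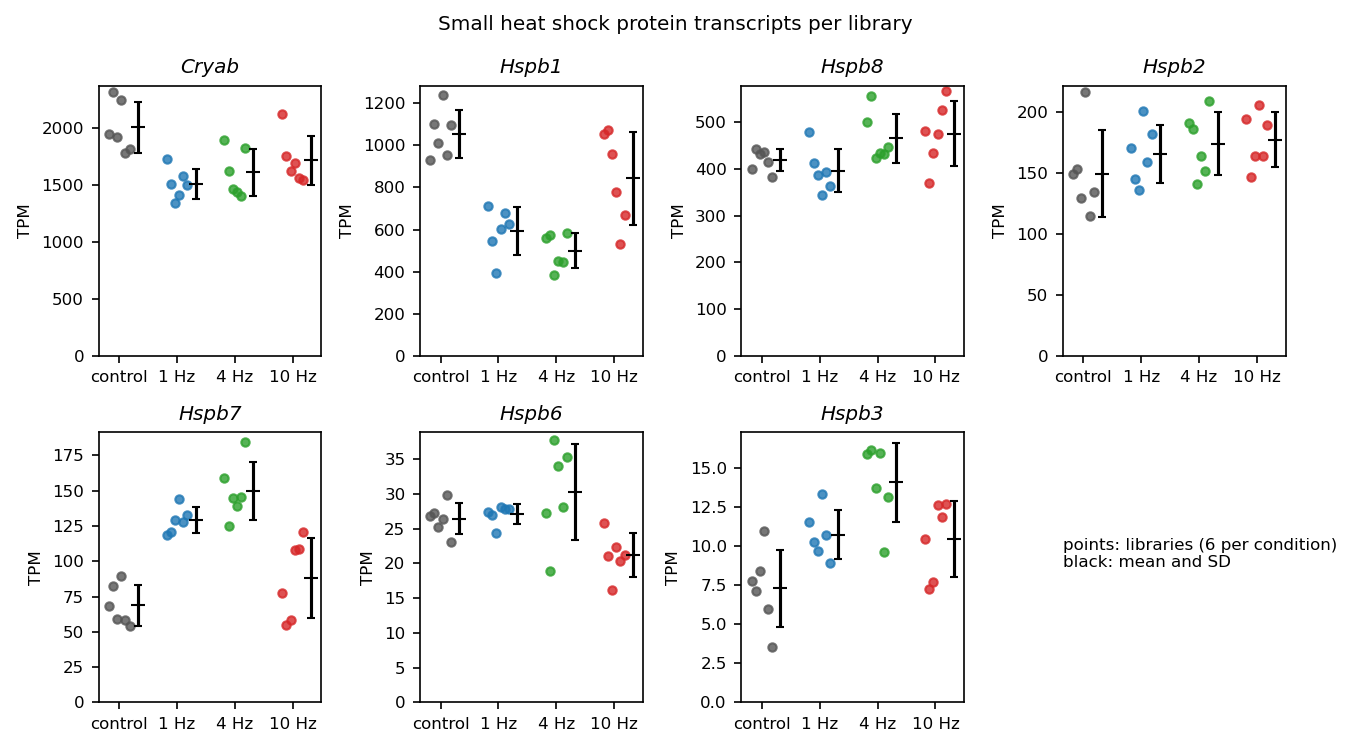
Level of each member in TPM (linear vertical axes from 0) for the 6 libraries of control, 1 Hz, 4 Hz and 10 Hz, with points for libraries and black bars for the mean and SD. The control points of Hspb1 lie above all points at 1 and 4 Hz, those of Hspb7 lie below them, and the 10 Hz points run from 530.2 to 1075 TPM for Hspb1 and from 54.8 to 121 TPM for Hspb7.

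Summed over the 7 genes, the level was 3733 ± 371 TPM in control, 2833 ± 273 TPM at 1 Hz, 2943 ± 347 TPM at 4 Hz and 3333 ± 354 TPM at 10 Hz (SD, n = 6 each). In CPM scaled by TMM the sum was 2158 ± 190.3, 1868 ± 140.03, 2185 ± 279 and 2189 ± 197 (SD, n = 6 each) in the same order, so that the mean was below control at 1 Hz on both scales and at 4 and 10 Hz on the TPM scale alone. Cryab held a similar part of that sum throughout, with 53.7% in control, 53.4% at 1 Hz, 54.7% at 4 Hz and 51.4% at 10 Hz. Hspb1 held 28.3 ± 1.79% in control, 20.8 ± 2.45% at 1 Hz, 16.9 ± 1.27% at 4 Hz and 25.1 ± 4.97% at 10 Hz (SD, n = 6 each). Hspb7 went the other way, from 1.83 ± 0.217% in control to 4.60 ± 0.638% at 1 Hz, 5.12 ± 0.63% at 4 Hz and 2.70 ± 1.03% at 10 Hz (SD, n = 6 each). Since TPM add up to a fixed sum per library, these shares are of the 7 genes and are unaffected by the scaling of a library as a whole.

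The second question was which members changed with stimulation frequency. Calls were made in edgeR (quasi-likelihood test across all tested genes) and required both a Benjamini-Hochberg adjusted p under 0.05 and a log2 fold change (log2FC) of more than 0.5 in size. In 1 Hz tissues compared with control, 2 members were upregulated (Hspb7 and Hspb3) and 1 was downregulated (Hspb1), where 9.34% of all tested genes were called higher and 8.99% lower. The same 3 genes were called at 4 Hz in the same directions, beside 10.5% of all genes higher and 9.61% lower, and both comparisons use the same control libraries. At 10 Hz compared with control, 0 of the 7 were called by edgeR, DESeq2 or limma on log2(TPM + 1), beside 1.24% of all genes higher and 0.623% lower. There 4 of the 7 had an unadjusted edgeR p below 0.05, beside 2750 of all 13318 tested genes. The median log2FC of the 7 was 0.097 at 1 Hz, 0.39 at 4 Hz and 0.29 at 10 Hz, and over all tested genes it was -0.0072, -0.014 and -0.0064.

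Between frequencies, Hspb1 was higher and Hspb7 lower at 10 Hz than at 1 Hz, where 9.45% of all genes were called higher and 8.49% lower. At 10 Hz compared with 4 Hz, Hspb1 was higher and Hspb7 and Hspb6 were lower, beside 5.32% and 5.64% of all genes. At 4 Hz compared with 1 Hz, edgeR and limma called 0 members and DESeq2 called 1 (Hspb3), beside 1.59% of all genes higher and 1.4% lower in edgeR. In that comparison 5 members had an unadjusted edgeR p below 0.05, beside 3585 of all 13318 tested genes.

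**Figure D2:**
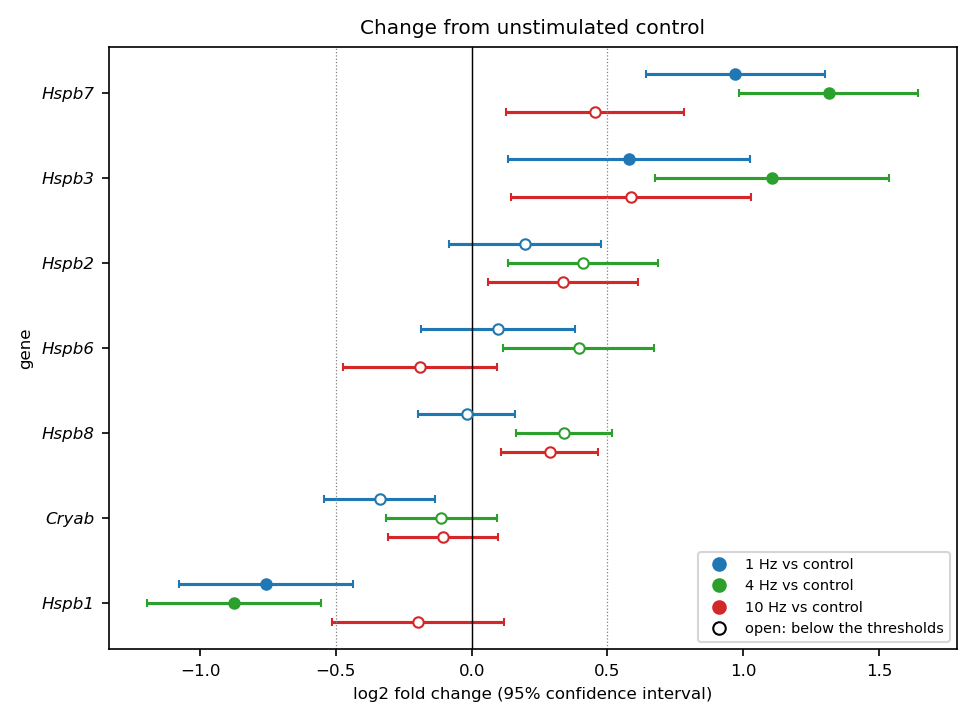
Log2 fold change of each member against unstimulated control in edgeR (horizontal axis, points with 95% confidence intervals) at 1, 4 and 10 Hz, with filled points for calls, open points for the rest and dotted lines at the fold threshold of 0.5. Hspb7 and Hspb3 lie to the right and Hspb1 to the left at 1 and 4 Hz, and all 7 points at 10 Hz are open.

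Hspb7, the filamin-binding member of striated muscle, was upregulated most among the 7. Its lowest, median and highest levels were 54.5, 63.7 and 89.6 TPM in control, 118, 129 and 144 TPM at 1 Hz, 125, 145 and 185 TPM at 4 Hz, and 54.8, 92.8 and 121 TPM at 10 Hz. Every library at 1 and 4 Hz lay above every control library, and the 10 Hz libraries overlapped with control. Relative to control, Hspb7 was 1.96-fold higher at 1 Hz (log2FC 0.97 ± 0.16 SE, adjusted p = 6.84e-05) and 2.49-fold higher at 4 Hz (log2FC 1.32 ± 0.16 SE, adjusted p = 1.16e-06). At 10 Hz its log2FC of 0.45 ± 0.16 SE (adjusted p = 0.0936) was below the threshold, though without 10 Hz library 2 or 3 it was called, at 0.55 in both cases (adjusted p = 0.0338 and 0.0347). The 4 Hz level was not called above the 1 Hz level (log2FC 0.34 ± 0.16 SE, 95% confidence interval 0.023 to 0.67, adjusted p = 0.153). Hspb7 at 10 Hz was lower than at 4 Hz in 6 of 6 libraries (log2FC -0.86 ± 0.16 SE, adjusted p = 0.000568) and lower than at 1 Hz in 5 of 6 (log2FC -0.52 ± 0.16 SE, adjusted p = 0.0122). This last call was lost without 1 Hz library 4 or 6 (-0.48 and -0.50) and without 10 Hz library 1, 2 or 3 (-0.49, -0.42 and -0.42).

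Genes that mark myotubes rose beside Hspb7, with 8 of 10 markers called higher at 1 Hz, 9 of 10 at 4 Hz and 3 of 10 at 10 Hz. On the TPM scale, limma called 8, 6 and 1 of the 10 higher, without Myh4, Mymk and Atp2a1 at 4 Hz (log2FC 0.35, 0.44 and 0.48) and with Myh3 alone at 10 Hz. With small RNA content added to the edgeR fit as a covariate, none of the markers called at 1 Hz stayed called. Mylpf, Tnnt3 and Tnni2 stayed called at 4 Hz, and Myog, Mylpf and Myh3 at 10 Hz. The median log2FC of the 10 in edgeR was 0.75, 0.84 and 0.25, and their summed level ranged from 5653 to 7788 CPM in control, 9832 to 14449 CPM at 1 Hz, 10561 to 17088 CPM at 4 Hz and 6560 to 11017 CPM at 10 Hz. At 4 Hz the largest rises among them were of Myh3, the embryonic myosin heavy chain (log2FC 1.26), Tnni2, fast troponin I (1.23), and Mylpf, a fast myosin light chain (1.10). At 1 Hz they were of Myh3 (1.23), Myh4, an adult fast myosin heavy chain (1.05), and Atp2a1, the fast calcium pump of the sarcoplasmic reticulum (0.92). The log2FC of Hspb7 was 0.22 above the marker median at 1 Hz and 0.48 above it at 4 Hz. In such bulk samples, more myotubes and more RNA per myotube cannot be told apart, and the part of the markers in the change of Hspb7 was not tested.

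Hspb3, the partner of Hspb2, was the least abundant member and the least precisely measured. It ran from 3.56 over a median of 7.43 to 10.99 TPM in control, from 8.89 over 10.5 to 13.3 TPM at 1 Hz, from 9.65 over 14.8 to 16.2 TPM at 4 Hz, and from 7.23 over 11.2 to 12.7 TPM at 10 Hz. At 4 Hz, 5 of 6 libraries lay above all controls, and the level was 2.15-fold higher (log2FC 1.11 ± 0.21 SE, adjusted p = 0.000189). At 1 Hz the ranges overlapped, with 2 of 6 libraries above all controls on the CPM scale (log2FC 0.58 ± 0.22 SE, adjusted p = 0.0385). That call was lost when control library 1, 2, 5 or 6 or 1 Hz library 1, 4 or 5 was left out, with log2FC between 0.45 and 0.60 and adjusted p between 0.0510 and 0.0981. The 10 Hz change was of the same size (log2FC 0.59 ± 0.22 SE) with an adjusted p of 0.110, and without control library 4 it was called (0.76, adjusted p = 0.0474). Hspb3 at 4 Hz stood 0.53 ± 0.20 SE above 1 Hz on the log2 scale (adjusted p = 0.0776), a difference that was called without 4 Hz library 5 (0.62, adjusted p = 0.0460). At 10 Hz it stood 0.52 ± 0.20 SE below 4 Hz (log2FC -0.52, adjusted p = 0.0545), and leaving out control library 4 or 6, 4 Hz library 5 or 10 Hz library 4 or 6 made this a call (log2FC -0.52 to -0.62, adjusted p between 0.0245 and 0.0417).

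Hspb1, the stress-inducible Hsp27, was the only member downregulated against control in this test. The lowest, median and highest levels were 931, 1055 and 1239 TPM in control, 394, 614 and 712 TPM at 1 Hz, 384, 505 and 582 TPM at 4 Hz, and 530.2, 868 and 1075 TPM at 10 Hz. All 12 libraries at 1 and 4 Hz lay below the lowest control, and 3 of 6 at 10 Hz did. Hspb1 was 1.69-fold lower at 1 Hz (log2FC -0.76 ± 0.16 SE, adjusted p = 0.000565) and 1.83-fold lower at 4 Hz (log2FC -0.87 ± 0.16 SE, adjusted p = 0.000102). At 10 Hz the log2FC was -0.20 ± 0.15 SE with a 95% confidence interval from -0.51 to 0.12 (adjusted p = 0.505). No call was made between 4 and 1 Hz (log2FC -0.12, 95% confidence interval -0.44 to 0.20, adjusted p = 0.675). Compared with 4 Hz, the 10 Hz level was 1.60-fold higher (log2FC 0.68 ± 0.16 SE, adjusted p = 0.00307), with 5 of 6 libraries above all at 4 Hz. Compared with 1 Hz it was 1.47-fold higher (log2FC 0.56 ± 0.16 SE, adjusted p = 0.00631), a call that fell under the fold threshold without 1 Hz library 3 (0.46) or 10 Hz library 1 or 2 (0.48 each).

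As a result of these opposite changes, the level of Hspb7 as a percentage of that of Hspb1 in the same library was 6.50 ± 1.02% in control, 22.6 ± 5.64% at 1 Hz, 30.5 ± 5.31% at 4 Hz and 11.8 ± 6.56% at 10 Hz in TPM (SD, n = 6 each). The control range of 4.96% to 7.51% did not overlap with 16.6% to 32.9% at 1 Hz or 21.7% to 37.7% at 4 Hz.

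**Figure D3:**
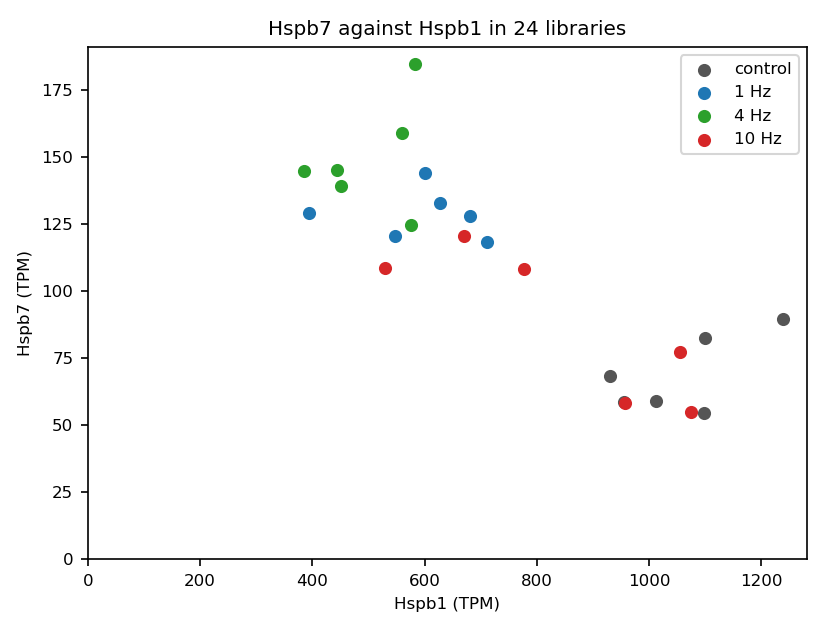
Hspb7 against Hspb1 in the 24 libraries, both in TPM on linear axes from 0, colored by condition. Controls sit at the lower right, with Hspb1 from 931 to 1239 TPM and Hspb7 from 54.5 to 89.6 TPM, 1 and 4 Hz libraries sit at the upper left, 3 of the 10 Hz libraries lie among the controls, and 3 lie near the 1 Hz libraries.

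Cryab and Hspb2, the divergent gene pair, had mean changes from control of opposite sign. Over the 24 libraries their log2 CPM had a Pearson r of 0.33, and of 0.66 after subtraction of the condition means. Cryab had its lowest, median and highest levels at 1782, 1937 and 2319 TPM in control, 1343, 1501 and 1727 TPM at 1 Hz, 1406, 1547 and 1892 TPM at 4 Hz, and 1540.0, 1661 and 2122 TPM at 10 Hz. All 1 Hz libraries lay below all controls, and the log2FC of -0.34 ± 0.10 SE (adjusted p = 0.00989) passed the p threshold without reaching the fold threshold. At 4 and 10 Hz the ranges overlapped with control, with a log2FC of -0.11 ± 0.10 SE in both cases (adjusted p = 0.387 and 0.593). Limma on log2(TPM + 1) gave Cryab -0.41, -0.32 and -0.23 at 1, 4 and 10 Hz (adjusted p = 0.00208, 0.00767 and 0.142). Over all genes, the median log2FC against control on that scale was -0.060, -0.16 and -0.091 at 1, 4 and 10 Hz. The limma values of Hspb2, Hspb8 and Hspb6 given below are on the same scale. Whether Cryab passed the p threshold at 4 Hz thus depended on the scale. Hspb2 ran from 114 over a median of 142 to 216 TPM in control, from 136 over 165 to 201 TPM at 1 Hz, from 141 over 175 to 209 TPM at 4 Hz, and from 147 over 177 to 206 TPM at 10 Hz. The highest control value, that of library 4, exceeded all libraries of the other conditions. The log2FC of Hspb2 was 0.20 ± 0.14 SE at 1 Hz (adjusted p = 0.268), 0.41 ± 0.13 SE at 4 Hz (adjusted p = 0.0177) and 0.34 ± 0.14 SE at 10 Hz (adjusted p = 0.147). Without control library 4 the 4 Hz change was called (log2FC 0.55, adjusted p = 0.00115). With all libraries, limma on log2(TPM + 1) gave Hspb2 0.16, 0.23 and 0.26 at 1, 4 and 10 Hz (adjusted p = 0.361, 0.157 and 0.231). The level of Hspb2 as a percentage of Cryab in TPM was 7.42 ± 1.19% in control, 11.02 ± 1.81% at 1 Hz, 10.8 ± 0.785% at 4 Hz and 10.4 ± 1.58% at 10 Hz (SD, n = 6 each). Control library 4, at 9.64%, lay within the 4 Hz and 10 Hz ranges, which began at 9.63% and 8.37%, and just below the lowest 1 Hz value of 9.65%, while the other 5 controls, at 6.42% to 7.65%, lay below all stimulated libraries.

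Hspb8, the chaperone that works with Bag3, changed by less than the fold threshold in every comparison. Its lowest, median and highest levels were 384, 424 and 444 TPM in control, 344, 390.1 and 479 TPM at 1 Hz, 423, 441 and 557 TPM at 4 Hz, and 371, 478 and 567 TPM at 10 Hz. These TPM ranges overlapped, but in CPM all 6 libraries at 4 Hz lay above all controls. The log2FC against control was -0.018 ± 0.087 SE at 1 Hz (adjusted p = 0.889), 0.34 ± 0.087 SE at 4 Hz (adjusted p = 0.00298) and 0.29 ± 0.087 SE at 10 Hz (adjusted p = 0.0526). Hspb8 was also above its 1 Hz level by 0.36 ± 0.087 SE at 4 Hz (adjusted p = 0.00786) and by 0.31 ± 0.087 SE at 10 Hz (adjusted p = 0.00753) on the log2 scale. In limma on log2(TPM + 1) the 4 Hz change was 0.15 against control (adjusted p = 0.217). Against 1 Hz, limma gave 0.23 at 4 Hz and 0.26 at 10 Hz (adjusted p = 0.102 and 0.0415). With a 10 Hz mean above both control and 1 Hz, Hspb8 differed from Hspb1 and Hspb7, whose 10 Hz levels lay between control and 1 Hz.

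Hspb6, the kinase target Hsp20, differed in mean between 10 Hz and 4 Hz, with overlapping ranges. It ran from 23.0 over a median of 26.6 to 29.9 TPM in control, from 24.4 over 27.6 to 28.1 TPM at 1 Hz, from 19.0 over 31.0 to 37.7 TPM at 4 Hz, and from 16.2 over 21.1 to 25.9 TPM at 10 Hz. The 4 Hz libraries were spread most, and library 2 among them was below every control. Against control, the log2FC was 0.097 ± 0.14 SE at 1 Hz (adjusted p = 0.610), 0.39 ± 0.14 SE at 4 Hz (adjusted p = 0.0230) and -0.19 ± 0.14 SE at 10 Hz (adjusted p = 0.469). Leaving out 4 Hz library 2 took the 4 Hz change to 0.51 (adjusted p = 0.000943), past the fold threshold. With all libraries, limma on log2(TPM + 1) gave 0.16 at 4 Hz against control (adjusted p = 0.326). Hspb6 was 1.50-fold lower at 10 Hz than at 4 Hz (log2FC -0.58 ± 0.13 SE, adjusted p = 0.00308), although only 1 of 6 libraries lay below all at 4 Hz, and in limma on log2(TPM + 1) the difference of -0.47 (adjusted p = 0.0117) was under the fold threshold.

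The 10 Hz condition was uneven for the members that changed most. Its libraries 1, 2 and 3 had Hspb1 at 1055, 1075 and 958 TPM, within the control range, and Hspb7 at 77.3, 54.8 and 58.3 TPM, also within it. Libraries 4, 5 and 6 had Hspb1 at 777, 530.2 and 671 TPM and Hspb7 at 108, 109 and 121 TPM, outside the control range in both genes and on the side of the 1 and 4 Hz tissues. The small RNA content divided the same libraries, with 178, 274 and 112 CPM in libraries 1 to 3 and 81.3, 67.5 and 38.4 CPM in libraries 4 to 6. When the log2 small RNA content was added to the edgeR fit as a covariate, 0 members were called in all 6 comparisons. The log2FC of Hspb7 was then 0.39 ± 0.21 SE at 1 Hz (adjusted p = 0.517) and 0.74 ± 0.21 SE at 4 Hz (adjusted p = 0.0546), that of Hspb1 was -0.32 ± 0.23 SE and -0.42 ± 0.23 SE (adjusted p = 0.680 and 0.356), and that of Hspb3 was 0.25 ± 0.33 SE and 0.79 ± 0.32 SE (adjusted p = 0.860 and 0.195). Called genes over the whole table against control came to 1 at 1 Hz, 248 at 4 Hz and 204 at 10 Hz in that fit. With it, 0, 3 and 4 members had an unadjusted edgeR p below 0.05 against control at 1, 4 and 10 Hz. The share of all genes below that p in this fit was not counted, so these member counts cannot be set against a background. The part of library composition in these changes was not tested beyond this fit.

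**Figure D4:**
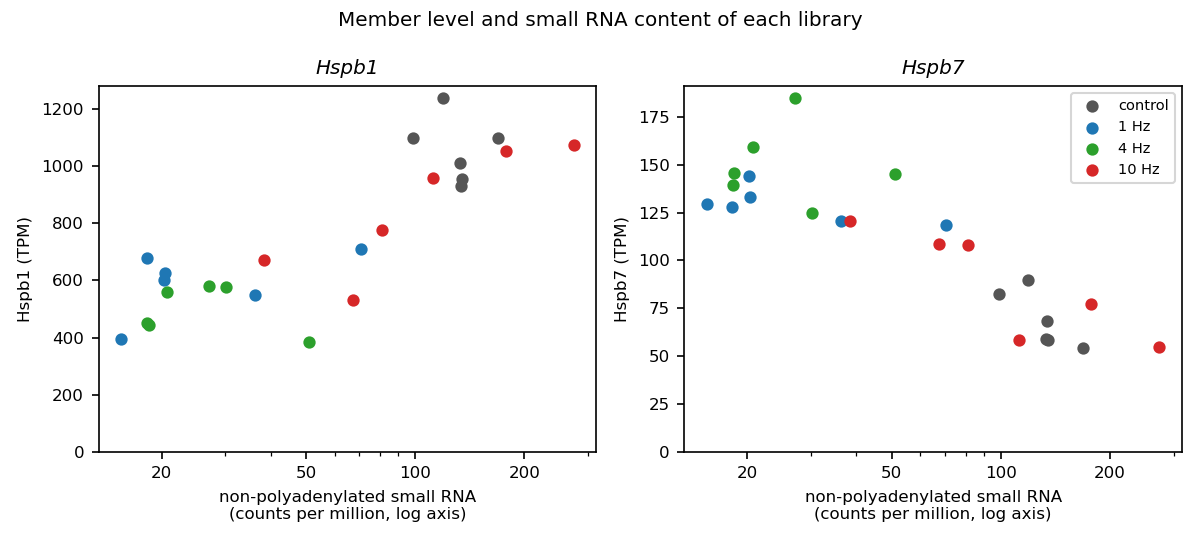
Level of Hspb1 and Hspb7 in TPM (linear axes from 0) against the non-polyadenylated small RNA content of the same library in CPM (log axis), one point per library. Libraries at 1 and 4 Hz, with 15.5 to 70.8 CPM of small RNA, hold less Hspb1 and more Hspb7 than controls with 98.8 to 169 CPM, and the 10 Hz libraries, with 38.4 to 274 CPM, run from 530.2 to 1075 TPM for Hspb1 and from 54.8 to 121 TPM for Hspb7.

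The other genes of the pathway were taken as lists. Of 9 heat shock factors and ATP-dependent chaperones, 5 were downregulated and 0 upregulated at 1 Hz, with a median log2FC of -0.60 over the list, and the same counts and a median of -0.52 were found at 4 Hz. Hspa1a, an inducible Hsp70, had a log2FC of -2.46 ± 0.52 SE at 1 Hz (adjusted p = 0.000703) and -2.52 ± 0.51 SE at 4 Hz (adjusted p = 0.000382), falling from 72.2 CPM in control to 13.0 and 12.4 CPM. Its near-identical copy Hspa1b had -1.52 and -1.76, and how reads were split between these copies is uncertain. Hsph1, an Hsp70 exchange factor, had -1.01 and -1.005 (SE 0.19 each), and the other two of the 5 were Hsp90aa1, the inducible Hsp90 (-0.76 and -0.82), and the factor Hsf2 (-0.60 and -0.52), named after their values were seen. With the small RNA covariate none of the 5 was called at 1 or 4 Hz, and the log2FC was -0.69 and -0.83 for Hspa1a, -0.15 and -0.38 for Hspa1b and -0.31 and -0.29 for Hsph1. Hsf1, the main heat shock factor, was not called, with 0.35 ± 0.12 SE and 0.31 ± 0.12 SE. At 10 Hz against control 0 of the 9 were called by edgeR or DESeq2, 0 had an unadjusted p below 0.05, and the median was -0.048, while Hspa1a ran from 8.02 to 210.1 CPM over the 10 Hz libraries. At 10 Hz, 4 of the 9 were higher than at 1 Hz and 4 higher than at 4 Hz, as Hspb1 was.

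**Figure D5:**
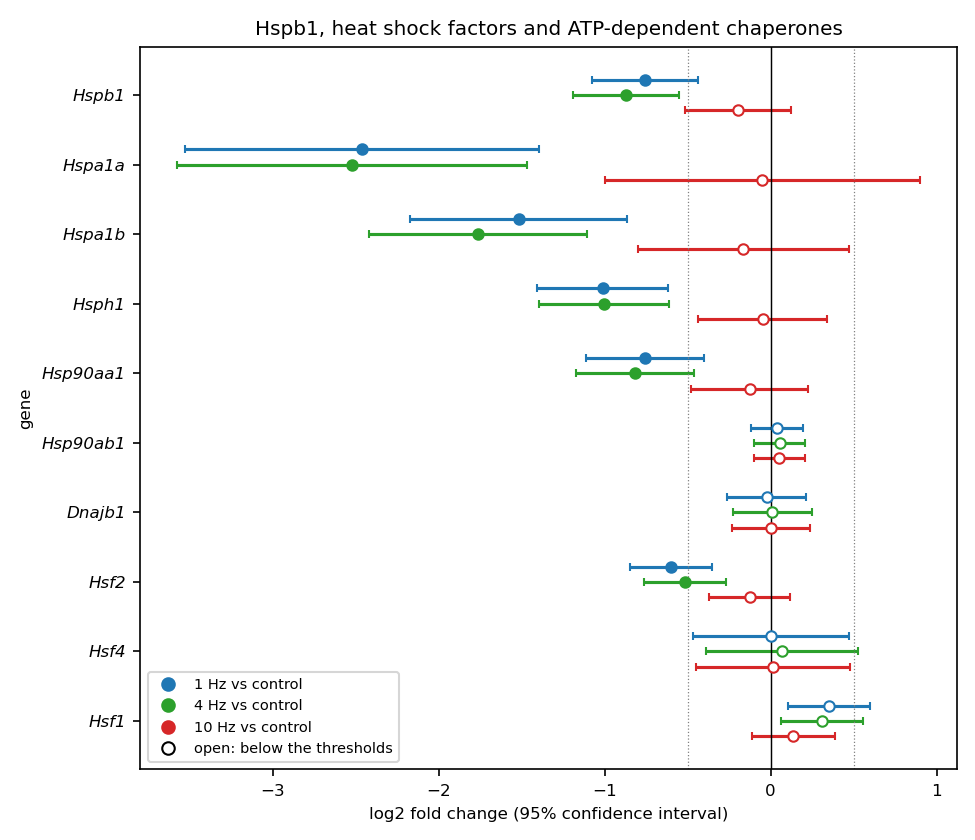
Log2 fold change against control in edgeR (horizontal axis, points with 95% confidence intervals) of Hspb1 and the 9 listed heat shock factors and ATP-dependent chaperones at 1, 4 and 10 Hz, filled where called. Hspa1a, Hspa1b, Hsph1, Hsp90aa1 and Hsf2 lie left of 0 with Hspb1 at 1 and 4 Hz, Hsp90ab1, Dnajb1 and Hsf4 lie near 0, and no gene is called at 10 Hz.

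Bag3, the co-chaperone that binds Hspb8, was lower than every control in 6 of 6 libraries at 1 Hz (log2FC -0.43 ± 0.092 SE, adjusted p = 0.000765, below the fold threshold) and was downregulated at 4 Hz (log2FC -0.59 ± 0.092 SE, adjusted p = 2.4e-05), while Hspb8 was at -0.018 and 0.34. At 10 Hz Bag3 had a log2FC of -0.12 ± 0.092 SE (adjusted p = 0.4995). In the list of 8 genes of Bag3-directed autophagy, edgeR and DESeq2 called 0 at 1 Hz. There 3 had an unadjusted edgeR p below 0.05, beside 5910 of all 13318 tested genes. At 4 Hz both tools called 2, namely Bag3 and Synpo2, its adaptor at the Z-disc, which rose (0.55 ± 0.12 SE, adjusted p = 0.000567). Synpo2 did not reach the fold threshold with total-count scaling (0.46) or in limma on TPM (0.42). At 4 Hz limma on TPM called 0 genes of the list higher and 2 lower, Bag3 among them. At 10 Hz 0 were called by edgeR or DESeq2 and 1 had an unadjusted p below 0.05. The medians of the list were -0.12, -0.11 and -0.024.

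Of 6 cytoskeletal clients and binding partners, 2 rose at 1 Hz and the same 2 at 4 Hz. These were Actn2, the alpha-actinin of the Z-disc (log2FC 1.16 and 1.23, SE 0.17 each), and Dmpk, the kinase bound by Hspb2 (0.62 and 0.71, SE 0.14 each). Desmin (Des) had 0.35 ± 0.11 SE and 0.32 ± 0.11 SE and filamin C (Flnc), the partner of Hspb7, had 0.35 ± 0.11 SE and 0.13 ± 0.11 SE, none of which was called. The list medians were 0.35, 0.23 and 0.13 at 1, 4 and 10 Hz, and at 10 Hz edgeR and DESeq2 called 0 of the 6 with 2 at an unadjusted p below 0.05. Of 8 kinases listed as acting on small heat shock proteins, directly or through another kinase, 7 were tested. Prkg1, the cGMP-dependent kinase, was called higher at 1 Hz (0.93 ± 0.30 SE) and 4 Hz (0.81 ± 0.29 SE), and Mapkapk3, a kinase of Hspb1, at 4 Hz (0.82 ± 0.30 SE), all at means under 4 CPM. Both calls at 4 Hz were lost with total-count scaling (edgeR adjusted p = 0.0510 and 0.0560), and on TPM Mapkapk3 had 0.36 (limma adjusted p = 0.141). At 10 Hz 0 of the 7 were called by either tool, and 2 had an unadjusted p below 0.05. Of 4 further genes listed under small heat shock proteins, some by name alone, Hspb11 was tested and was not called in any comparison by edgeR or DESeq2 (log2FC 0.063, 0.28 and 0.19 against control, 1 unadjusted p below 0.05, at 4 Hz). Cryaa, Hspb9 and Odf1 had mean counts under 1 per library.

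Markers of other cell states were measured beside these genes. Of 6 markers of undifferentiated myoblasts, 2 were called higher at 1 Hz and 2 higher and 1 lower at 4 Hz, among them Myod1 (log2FC 1.17 and 1.51), which is also active in young myotubes. Of 6 markers of cycling cells, 2 were called higher at 4 Hz by edgeR (Mki67 and Top2a), while the list median there was -0.019. Pcna, the replication clamp, and Cdk1, the mitotic kinase, had lower means at 4 Hz than in control without reaching the fold threshold (123 against 157 CPM and 11.3 against 14.6 CPM). On TPM, where Mki67 was not tested, limma called 0 markers higher and these 2 lower (log2FC -0.55 and -0.67), with Top2a at 0.16 (adjusted p = 0.693), so the direction of this list depends on the scale. The summed level of the 6 ranged from 187 to 232 CPM in control, 157 to 185 CPM at 1 Hz, 155 to 192 CPM at 4 Hz and 170.4 to 237 CPM at 10 Hz. None of 5 adipocyte markers had enough counts to be tested, with a summed level of at most 1.09 CPM and Cfd at 0 in all libraries. Of 5 osteoblast markers, Runx2 was tested and was called higher at 1 Hz (0.61), and Bglap, Ibsp, Sp7 and Alpl had mean counts under 3. The part of these states in the members' changes was not tested. Over all lists, members and small RNAs included, 25 genes were called against control at 1 Hz, 30 at 4 Hz and 3 at 10 Hz. Of these, 0, 4 and 3 were called with the small RNA covariate. Among the genes called without it, 3 small RNAs at 1 Hz and 2 at 4 Hz are part of that covariate, so their loss was built into the fit.

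For each member, the tested genes of at least 10 CPM whose log2 CPM were most like it over the 24 libraries are given as a description. The nearest to Hspb7 were Pgam2, muscle phosphoglycerate mutase, Ankrd23, a titin-binding ankyrin repeat protein, and Cpne2, each with Pearson r = 0.97, and after subtraction of the condition means r was 0.91, 0.95 and 0.88. Nearest to Hspb1 were Nudc, Wdr81 and Apol9b (r = 0.95, 0.94 and 0.93), with 0.87, 0.90 and 0.81 within conditions. Cryab was closest to Twf2 (r = 0.90), Hspb2 to Trim54 (r = 0.91), Hspb3 to Prdx5 (r = 0.88), Hspb6 to the noncoding RNA H19 (r = 0.86) and Hspb8 to Eif4e2 (r = 0.84). The 24 points share the 4 conditions and the differences in library composition described above, and 9294 genes were searched (9295 for Hspb3).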

How the data were processed

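RNA was poly(A)-selected (ribodepleted in unnamed low-input samples), made into directional libraries and sequenced as paired-end reads. The authors ran nf-core/rnaseq with salmon against GRCm39 and deposited estimated counts (expected counts, not normalized) and TPM per gene. The annotation release and the strand setting of the counting are not given in the sources used here.

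Estimated counts were rounded. Genes passing filterByExpr (99.8% of counts) were scaled by TMM and tested in 1 edgeR 4.0.16 quasi-likelihood fit of all 24 libraries (R 4.3.3) with condition as the only factor. Adjustment was by Benjamini-Hochberg across 13318 genes. CPM use TMM-scaled library sizes, and the small RNA content is of the raw total. Alternatives used DESeq2 1.42.0 (the study's tool, there with shrinkage), limma 3.58.1 on TPM, other scalings and filters, a covariate, and each library left out. Intervals of 95% come from the fit and give the uncertainty of a mean log2 difference. They and the p-values rest on the spread between libraries. Positions come from GENCODE M39. Replicate numbers were not used as pairs in the main fit, and a block by replicate number was 1 of the alternatives. Same-numbered libraries of 36 pairs correlated at -0.18 to 0.36 (median 0.017), 10 of them above 0.1. Of the 24 libraries, 10 correlated best with a library of their own number, so shared structure by number is not excluded.

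Named genes were the 7 members, up to 3 called genes with the largest change per list, Bag3, Hsf1, Hspa1a, Des and Flnc, and the 3 genes most like each member. The members and lists were chosen with earlier results of these data known.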

Additional observations from a re-analysis of the deposited data

Results flagged for a closer look

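Control library 4 stood apart from the other 5 controls in 2 members. It held 640.6 CPM of Hspb1, where the others held 490.1 to 545 CPM, and 81.8 CPM of Hspb2, where the others held 43.9 to 58.1 CPM. These were 2 of 28 sets of 6 libraries examined, and chance alone marks about 5% of such sets. For Hspb1 the outlying control lies farther from the stimulated libraries, and for Hspb2 it lies on their side.

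The levels of 3 members differed between frequencies by a direct test in edgeR, in differences that were not called with the small RNA covariate. Hspb1 was 0.56 higher on the log2 scale at 10 Hz than at 1 Hz and 0.68 higher than at 4 Hz. Hspb7 had a log2 fold change of -0.52 at 10 Hz against 1 Hz and -0.86 against 4 Hz. Hspb6 had -0.58 at 10 Hz against 4 Hz. At 10 Hz, libraries 1 to 3 lay within the control range of Hspb1 and Hspb7 and libraries 4 to 6 outside it.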

How the results depend on the processing

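The 11 calls of members were refitted in 394 alternatives and kept their sign in 394 and their call in 356. Of the 11, 7 were called in every alternative that could be fitted other than the small RNA covariate. With that covariate the number of members called was 0 in each comparison, from 3 at 1 Hz and at 4 Hz against control, 2 at 10 Hz against 1 Hz and 3 at 10 Hz against 4 Hz. An adjusted p alone gave 6 members at 4 Hz against control, beside 5251 of all 13318 tested genes. At 4 Hz against 1 Hz it gave 1 (Hspb8), beside 1634 of all 13318 tested genes. Of the 6, Hspb2, Hspb6 and Hspb8 had limma adjusted p of 0.157, 0.326 and 0.217 on log2(TPM + 1). Hspb8 at 4 Hz against 1 Hz had 0.102 there. For 4 Hz against 1 Hz, DESeq2 and the fit of only the 12 libraries compared each gave 1 (Hspb3). At 10 Hz against 1 Hz, 1 member was called with total-count scaling, with a minimum of 5 CPM and in limma on log2(TPM + 1), log2(TPM + 0.1) or log2(TPM + 1) without a filter. Leaving out each library gave 2 to 3 members at 1 Hz and 3 to 4 at 4 Hz against control, 0 to 1 at 10 Hz against control, 0 to 1 at 4 Hz against 1 Hz, 0 to 2 at 10 Hz against 1 Hz and 3 to 4 at 10 Hz against 4 Hz. With the replicate block the counts were 3, 3, 0, 0, 2 and 4 in the same order, Hspb3 being added at 10 Hz against 4 Hz, and 10 of 24 libraries correlated best with their own number. Hspb3 at 1 Hz was also lost with total-count scaling, without a filter, in limma without a filter and in the fit of 12 libraries, and it was not tested at a minimum of 5 CPM. Total-count scaling moved the median log2FC of all genes at 4 Hz against control to -0.11 and TPM to -0.16 (TPM to -0.10 at 4 Hz against 1 Hz), and no called member, and no listed gene called against control and measured there, changed sign under these scalings. Over the alternatives the adjusted p against control ran from 8.23e-08 to 0.517 at 1 Hz and 4.47e-14 to 0.0546 at 4 Hz for Hspb7, and from 1.99e-05 to 0.680 and 5.31e-07 to 0.356 for Hspb1. The cause of these changes was not tested. Depth limits Hspb3 most, at 7 to 88 counts per library.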
